A study of Mus musculus with 72 samples.

Results

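The addition of RC-3095 (RC) to gastrin-releasing peptide (GRP) was examined in 1014-Grpr, a female mouse melanoma line of the genotype Tyr::NRASQ61K/°;CMV::Grpr/tGFP. The libraries were chosen by their labels: 3 of cells given 10 nM GRP together with 1 µM RC and 3 of cells given 10 nM GRP alone, 6 of the 72 libraries of the series. The other 6 libraries of the line, 3 mock (0.1% DMSO) and 3 with 1 µM RC alone, entered the same fit, so that the size of the GRP response itself was known. Cells were starved for 18 h in 0.5% FCS and then treated for 4 h in the same serum. The line was made by transfecting 1014 cells, whose genotype lists no Cdh1 deletion, with a Grpr/tGFP plasmid under a CMV promoter and selecting with geneticin. The counts of Grpr do not tell the plasmid from the gene of the cells. The control line 1014-Ctrl (Tyr::NRASQ61K/°;CMV::tGFP, female) carries the reporter without Grpr. Lines 1057 and 1064 (female, Tyr::NRASQ61K/°; Cdkn2a-/-;Tyr::CreA/°;Cdh1dF/dF) are labelled GRPR-positive without a Grpr plasmid. The methods describe cell culture work in general as run with biological triplicates, and the labels of these libraries give replicate numbers without saying what separates them.

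GRPR is a seven-helix receptor of the bombesin family that couples to Gq. Its activation by GRP engages phospholipase C, which releases calcium and activates protein kinase C, and through these the MAP kinase cascade, with induction of immediate-early transcription factors such as FOS, EGR and NR4A as an early output. RC-3095 is a peptide analogue of bombesin that occupies GRPR and acts as an antagonist.

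The label of the line was checked against its genes. The 7 pigment cell markers summed to between 28900 and 37600 CPM (read counts scaled to the library total) in the 12 libraries, Xist lay between 690 and 1240 CPM, and the 4 Y-linked genes were at 0. Cdh1, which encodes E-cadherin, was low at 0.688 to 3.15 CPM. Endothelial markers summed to at most 0.327 CPM and keratinocyte markers to at most 0.123 CPM. The 7 macrophage and leukocyte markers summed to 6.01 to 10.2 CPM with GRP against 3.68 to 5.93 CPM with GRP+RC, nearly all of it Cd68 and Lyz2, with Ptprc at most at 0.159 CPM and Adgre1 at most at 0.0441 CPM. Whether any macrophages or leukocytes were present was not tested. The 6 fibroblast markers summed to 3.11 to 5.02 CPM with GRP and 4.01 to 5.31 CPM with GRP+RC. The 12 libraries held between 19512882 and 46862053 counted reads, and 3 counts in the shallowest of them correspond to 0.154 CPM. All CPM values of single genes that follow are TMM-normalized within a line.

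Adding RC lowered 218 of 13730 genes tested and raised 20 relative to GRP alone (edgeR's quasi-likelihood test, Benjamini-Hochberg adjusted p under 0.05 and more than 2-fold, here called). These are 1.59% and 0.146% of the genes tested. With the adjusted p alone 1106 genes (8.06%) were lower and 510 (3.71%) higher. GRP alone had called 434 genes higher (3.16%) and 117 lower (0.852%) than mock, the latter 74 without replicate 2. In bulk RNA, fewer cells expressing a gene and less RNA per cell cannot be told apart. With the replicate number of the labels as a block, the genes called higher numbered 44 and those called lower 269. Without replicate 3 of every treatment, 3 genes were called higher, against 11 without replicate 1 and 8 without replicate 2. Leaving out the GRP library of replicate 3 alone, the deepest of the line, gave 9. The genes called lower numbered 128 without replicate 2 of every treatment.

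The receptor was read first. Grpr (ENSMUSG00000031364, chromosome X of GRCm38, 163513904 to 163549677) stood at 129, 110 and 143 CPM in mock and 409, 591 and 638 CPM with GRP. It stood at 191, 208 and 269 CPM with GRP+RC, and at 142, 147 and 183 CPM with RC alone. Every GRP library was above every GRP+RC library, and every GRP+RC library above every mock and RC library. Grpr was 2.45 times as high with GRP as with GRP+RC (log2 fold change -1.30 ± 0.18 SE, adjusted p = 0.000603). In a joint fit with 1014-Ctrl the same change had an adjusted p of 0.467. That fit holds the mock library of 1014-Ctrl replicate 2, with 1165 Grpr counts against its label, whereas the other 1014-Ctrl libraries held at most 1. In 1057 and 1064, which carry no Grpr plasmid, Grpr went the other way after GRP. It stood at 243, 247 and 246 CPM in mock and 187, 179 and 191 CPM with GRP in 1057. In 1064 these values were 851, 1130 and 688 CPM and 417, 451 and 460 CPM. Of the other genes of the family, Nmb, which encodes the ligand neuromedin B, stood at 0.913 to 1.09 CPM with GRP and 0.831 to 1.42 CPM with GRP+RC, ranges that overlap. Grp, Nmbr and Brs3 were too low to be tested, with at most 4 counts in a library.

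Of the 434 genes called higher after GRP, 204 were called lower again when RC was added (47.0%), and another 125 were lower with an adjusted p under 0.05 but within 2-fold. The remaining 105 did not pass. Of the 117 genes called lower after GRP, 12 were called higher with RC (10.3%), 32 passed the adjusted p within 2-fold and 73 did not pass. With the replicate block 232 of the 434 were called lower, and 399 were lower by the adjusted p, against 21.7% of all genes. Of the 117 genes, 17 were then called higher and 80 were higher by the adjusted p, against 17.0% of all genes. GRP against mock and GRP+RC against GRP use the same 3 GRP libraries, so the direction of these counts is partly built in. The contrast of GRP+RC against RC shares no library with GRP against mock and measures the GRP response that was left under RC. The median log2 fold change of the 434 genes was 1.54 for GRP against mock and 0.39 for GRP+RC against RC, and that of the 117 genes was -1.22 and -0.33. Of the 434 genes 407 lay above 0 in GRP+RC against RC. The effect of RC on the GRP response, the difference of these responses in 1 model, was called in 144 genes downward (1.05%), 143 of them among the 434, and in 9 genes upward. With the replicate block it was called in 243 genes downward and 44 upward. Without replicate 1, 2 and 3 of every treatment it was called in 93, 46 and 73 genes downward.

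**Figure D1:**
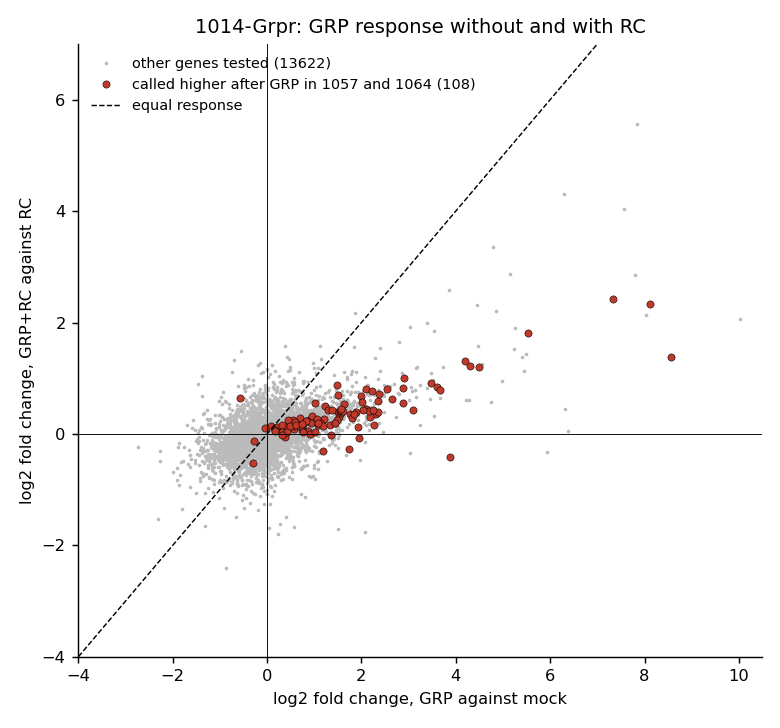
Each point is a gene of 1014-Grpr, with the log2 fold change of GRP against mock on the x axis and of GRP+RC against RC on the y axis, which use different libraries. The 108 genes called higher after GRP in both 1057 and 1064 (red) lie mostly to the right of 0 and below the dashed line of equal response, with medians of 1.31 and 0.26. Fitted values of genes with counts near 0 depend on the prior count.

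A list taken from other lines shares no library with 1014-Grpr. GRP called 127 genes higher in both 1057 and 1064, and 108 of them were tested in 1014-Grpr. Of these, 48 were called lower with GRP+RC than with GRP (44.4%, against 1.59% of all genes tested), 0 were called higher, and 78 were lower by the adjusted p alone. Their median log2 fold change was -1.0 in 1014-Grpr and 0.00 in 1014-Ctrl, against 0.00 over all genes of 1014-Grpr. Per replicate number the median difference of GRP+RC and GRP was -0.82, -1.01 and -0.97. Of the 28 genes called lower after GRP in both lines, 24 were tested and none was called with GRP+RC against GRP. Their median was 0.58, and 11 were higher by the adjusted p alone, against 3.71% of all genes. With the replicate block 22 of the 24 passed the adjusted p, all of them higher, against 17.0% of all genes.

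The 5 genes with the largest GRP response in 1057 and 1064 show how far single members came back. Plaur, the urokinase receptor that focuses plasmin activity at the cell surface, stood at 1.66, 1.79 and 1.70 CPM in mock and 23.9, 42.3 and 35.2 CPM with GRP. It stood at 6.59, 6.98 and 5.77 CPM with GRP+RC and 2.62, 2.94 and 2.76 CPM with RC. None of the 4 groups overlapped with another, and GRP+RC lay 5.25 times below GRP (log2 fold change -2.39 ± 0.17, adjusted p = 2.13e-05) but still above mock (1.90, adjusted p = 0.003). Tnc, which encodes the matrix glycoprotein tenascin C, held 2.49, 3.76 and 1.75 CPM in mock and 54.5, 163 and 159 CPM with GRP. With GRP+RC it held 6.40, 12.5 and 14.2 CPM (log2 fold change against GRP -3.51 ± 0.42, adjusted p = 0.000283). Serpinb2, the plasminogen activator inhibitor PAI-2, went from 8.73, 24.2 and 20.8 CPM with GRP to 0.696, 0.669 and 1.74 CPM with GRP+RC. The change in Serpinb2 was -4.10 ± 0.50 on the log2 scale (adjusted p = 0.000313), on 15, 16 and 42 counts with GRP+RC. Stc1, which encodes the secreted hormone stanniocalcin 1, fell less, from 3.10, 3.68 and 2.69 CPM to 1.16, 1.21 and 1.20 CPM (-1.40 ± 0.23, adjusted p = 0.00205). The Stc1 call was lost without replicate 1 or without replicate 2, at adjusted p = 0.0524 and 0.0783. AI839979 had not responded to GRP in this line, with 1.92, 1.23 and 1.42 CPM with GRP and 1.11, 1.09 and 1.70 CPM with GRP+RC.

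The 10 genes with the largest decrease at a mean of at least 1 CPM hold Tnc and Serpinb2 and 8 others. Ccn1 (Cyr61), a matrix-associated protein and a textbook target of YAP and of SRF, stood at 5.08, 7.08 and 3.27 CPM in mock and 154, 382 and 170 CPM with GRP. It stood at 14.1, 34.0 and 16.4 CPM with GRP+RC and at 7.30, 11.5 and 5.02 CPM with RC alone. Ccn1 was 10.9 times lower with RC added (log2 fold change -3.45 ± 0.44, adjusted p = 0.000405), and its GRP+RC libraries all lay above mock. Its relative Ccn2 (connective tissue growth factor) went from 165, 448 and 178 CPM to 21.6, 29.9 and 20.5 CPM, against 16.2, 13.3 and 12.8 CPM in mock (-3.46 ± 0.34, adjusted p = 7.94e-05). Lif, a cytokine of the interleukin 6 family, went from 60.1, 134 and 85.3 CPM to 7.10, 8.32 and 8.35 CPM, with 2.18, 2.09 and 2.15 CPM in mock (-3.56 ± 0.25, adjusted p = 2.13e-05). Il11, of the same family, went from 5.79, 12.3 and 11.8 CPM to 0.742, 1.00 and 1.25 CPM (-3.32 ± 0.30, adjusted p = 4.49e-05). In each of these genes the GRP and GRP+RC libraries were apart.

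The other 4 of the 10 were Inhba, Rgs16, Gdnf and Xirp1. With GRP+RC Rgs16 held 19, 131 and 73 counts, and the others rested on few. Inhba, Gdnf and Xirp1 lay under 1 CPM in mock, RC and GRP+RC and met the required mean through the GRP libraries. A large decrease in these genes is therefore partly built in. Inhba, which encodes a subunit of activin, went from 7.51, 17.5 and 16.1 CPM with GRP to 0.371, 0.209 and 0.374 CPM, on 8, 5 and 9 counts. The ratio of the pooled counts was 45.5 (95% interval 29.9 to 72.8, exact binomial, covering counting error only), and the adjusted p was 2.60e-05. Rgs16, which encodes a GTPase-activating protein that ends Gq and Gi signals, went from 30.8, 102 and 47.4 CPM to 0.881, 5.48 and 3.03 CPM (ratio of pooled counts 18.6, 16.3 to 21.4, adjusted p = 0.000339). Gdnf, a neurotrophic factor, went from 2.0, 5.89 and 3.51 CPM to 0.0928, 0.209 and 0.332 CPM (ratio 17.9, 10.7 to 32.2, adjusted p = 0.000802). Xirp1, which encodes an actin-binding repeat protein of muscle junctions, had 59, 278 and 113 counts with GRP. It had 1, 2 and 2 counts with GRP+RC and 0 in all 3 mock libraries (ratio of GRP to GRP+RC 64.1, 27.3 to 198, adjusted p = 0.00103).

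**Figure D2:**
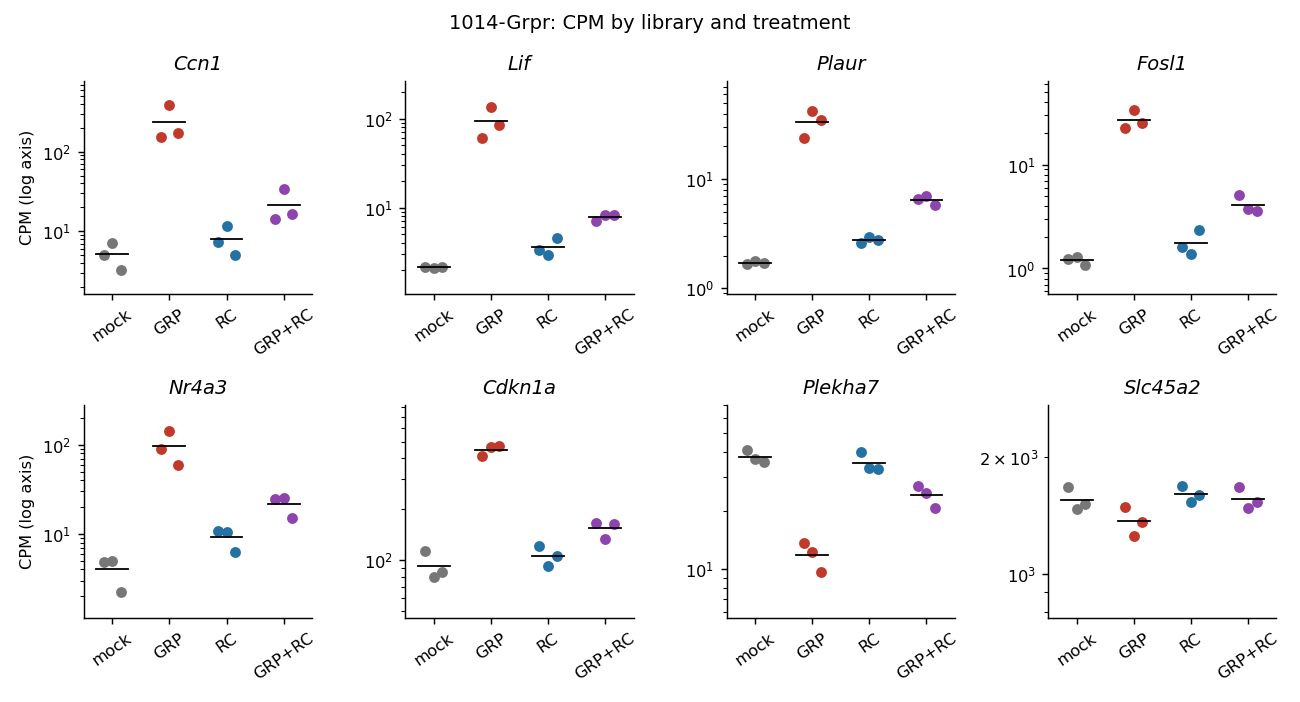
CPM on a log axis for 8 genes in the 12 libraries of 1014-Grpr by treatment, with 1 point per library (replicates 1 to 3 from left to right) and a bar at the mean of 3. For Ccn1, Lif, Plaur, Fosl1, Nr4a3 and Cdkn1a the GRP+RC libraries lie between GRP and mock, Plekha7 mirrors this from below, and the pigment gene Slc45a2 stays between 1250 and 1680 CPM.

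Start-site sequences are shown for 4 of these genes in which a searched motif was found. Of the 13 genes with the largest decrease or the largest response in 1057 and 1064, 10 were matched to a RefSeq start site (GRCm38.p6), in 14 windows of 300 bases that run from 250 before to 50 after the start. Xirp1, Ccn2 and Stc1 were not matched. The letters searched on both strands were TGANTCA (AP-1), TGACGTCA (CRE), GCGTGGGCG (EGR core), GGAATG (TEAD) and the CArG box of SRF. AP-1 letters were found in 5 of the 14 windows, of 4 genes, and in 7.81% of 32851 windows of all genes. The Serpinb2 windows among the 5 overlap and hold the same site, which is thus counted more than once. TEAD letters were found in 2 of the 14 windows, about the share of 14.7% in all windows. The CRE, EGR core and CArG letters were found in none of the 14 windows, and in 1.79%, 0.612% and 1.63% of all windows. Matches of different motifs did not overlap within a window. The windows below are written 5′ to 3′ along the gene, with the match in capitals: AP-1 in Plaur (chr7:24462233-24462532, plus strand, first base 69 before the start), Lif (chr11:4257318-4257617, plus strand, 228 before) and Serpinb2 (chr1:107511173-107511472, plus strand, 94 before), and TEAD, on the opposite strand, in Ccn1 (chr3:145649936-145650235, minus strand, 103 before). A match is a description of letters and not a bound site.
Plaur: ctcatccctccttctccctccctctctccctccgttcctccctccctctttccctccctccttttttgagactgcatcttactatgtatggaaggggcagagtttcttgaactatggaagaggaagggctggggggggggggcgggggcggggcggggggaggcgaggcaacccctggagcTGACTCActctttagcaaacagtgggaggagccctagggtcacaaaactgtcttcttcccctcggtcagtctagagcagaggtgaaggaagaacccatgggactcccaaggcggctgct
Lif: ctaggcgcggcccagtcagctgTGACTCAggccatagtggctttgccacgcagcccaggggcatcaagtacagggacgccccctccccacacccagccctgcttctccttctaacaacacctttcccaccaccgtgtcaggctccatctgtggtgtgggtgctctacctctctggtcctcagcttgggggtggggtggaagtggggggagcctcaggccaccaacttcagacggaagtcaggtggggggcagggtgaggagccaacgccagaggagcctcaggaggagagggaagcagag
Serpinb2: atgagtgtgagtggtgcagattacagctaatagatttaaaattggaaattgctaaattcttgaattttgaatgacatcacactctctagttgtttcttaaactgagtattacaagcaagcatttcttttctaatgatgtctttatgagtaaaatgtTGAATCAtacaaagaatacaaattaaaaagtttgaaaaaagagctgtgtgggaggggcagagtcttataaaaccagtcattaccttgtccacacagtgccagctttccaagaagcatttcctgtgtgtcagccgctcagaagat
Ccn1: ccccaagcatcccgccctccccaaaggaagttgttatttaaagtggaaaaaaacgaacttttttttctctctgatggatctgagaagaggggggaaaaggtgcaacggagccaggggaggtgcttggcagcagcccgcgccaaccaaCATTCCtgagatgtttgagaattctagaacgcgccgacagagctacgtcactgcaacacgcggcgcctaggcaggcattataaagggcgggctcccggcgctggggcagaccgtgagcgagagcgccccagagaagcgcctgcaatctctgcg

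The gene lists below were chosen with earlier results of these data known, so their shares are a description and not a test. Of 29 immediate-early transcription factors tested, 14 were called lower with RC added (48.3%, against 1.59% of all genes) and none higher, and 23 were lower by the adjusted p alone. Their median log2 fold change was -0.97, after 1.43 for GRP against mock, where 19 had been called higher, and 0.32 for GRP+RC against RC. Without replicate 2 of every treatment 8 were called lower. Fosl1, an AP-1 subunit, went from 22.8, 33.7 and 25.1 CPM to 5.06, 3.72 and 3.61 CPM, against 1.24, 1.29 and 1.07 CPM in mock (-2.72 ± 0.20, adjusted p = 2.13e-05). Of the exon bases of Fosl1, 57.2% overlap a gene on the other strand, so its counts are uncertain if strand was not used in counting. The stress-responsive factor Atf3 went from 72.0, 134 and 82.3 CPM to 18.0, 24.8 and 24.0 CPM (-2.11 ± 0.21, adjusted p = 7.70e-05). The nuclear receptor gene Nr4a2 went from 33.4, 55.3 and 46.9 CPM to 14.1, 13.8 and 13.8 CPM (-1.70 ± 0.15, adjusted p = 4.32e-05). Csrnp1, a nuclear transcription factor gene, went from 50.4, 72.0 and 50.2 CPM to 17.9, 17.6 and 17.6 CPM (-1.70 ± 0.14, adjusted p = 3.02e-05). In all 4 the GRP and GRP+RC libraries were apart.

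Secreted signals were the list with the largest share, a ranking of lists that were chosen with earlier results of these data known. Of 32 growth factors, cytokines and peptide hormones 20 were tested, and 16 of these were called lower with RC added (80.0%) and none higher. By the adjusted p alone 17 were lower and 1 higher, with a median log2 fold change of -2.13 after 3.63 for GRP against mock. Of the 16, Edn1, Cxcl1, Ptgs2, Pdgfb, Ereg and Bdnf had means of 0.252 to 0.74 CPM over the 12 libraries. A low gene that is high only with GRP can enter the test through those libraries, so this share is partly built in. The same holds for low members of other lists, such as Mmp10 of invasion and Cnn1, Tagln and Actg2 of actin. Beside Lif and Inhba, the members with the lowest p were Csf1 and Nppb. Csf1, which encodes the macrophage growth factor M-CSF, went from 76.2, 96.6 and 87.0 CPM to 31.4, 36.7 and 34.8 CPM, against 25, 24.8 and 21.9 CPM in mock (-1.34 ± 0.09, adjusted p = 2.13e-05). Nppb, which encodes the natriuretic peptide BNP, went from 134, 215 and 156 CPM to 34.8, 41.2 and 38.2 CPM, with 15.9, 13.1 and 12.7 CPM in mock (-2.14 ± 0.15, adjusted p = 2.13e-05).

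Of 20 tested genes of invasion, proteases and matrix, 8 were called lower (40.0%) and none higher, and 13 were lower by the adjusted p alone. The median was -0.96. With the replicate block 10 of the 20 were called lower, against 8 without it. Both Plaur and Serpinb2, an inhibitor of the protease that Plaur binds, were among the 8. Itga5, the fibronectin-binding integrin subunit, went from 251, 315 and 304 CPM to 142, 146 and 135 CPM (-1.04 ± 0.08, adjusted p = 2.60e-05). Thbs1, which encodes thrombospondin 1, went from 22.4, 29.7 and 23.5 CPM to 12.5, 10.2 and 11 CPM, a range that overlapped that of mock (-1.16 ± 0.12, adjusted p = 7.94e-05).

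Of 20 tested YAP/TAZ targets, 4 were called lower (20.0%) and none higher, against 7 called higher after GRP, and the median was -0.42. The 4 were Ccn1, Ccn2, Myof and Gadd45a. Myof, a membrane repair protein of the ferlin family, went from 227, 275 and 340 CPM to 93.5, 86.3 and 110 CPM (-1.54 ± 0.17, adjusted p = 0.000149). Gadd45a, a growth arrest gene, went from 54.3, 73.6 and 55.7 CPM to 26.7, 31.1 and 30.7 CPM (-1.05 ± 0.11, adjusted p = 9.66e-05). With the replicate block 5 of the 20 were called lower. By the adjusted p 12 were then lower, against 21.7% of all genes, and 2 higher. Without the block these were 6 and 1. Ankrd1, a defining target, had no count in any of the 12 libraries and was not tested.

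Of 15 tested genes of the actin cytoskeleton and SRF targets, 6 were called lower (40.0%), and 12 were lower by the adjusted p alone. The median was -0.85, and all 15 lay below 0. The count called was 3 with DESeq2, 2 without replicate 2 and 3 without the GRP library of replicate 2. Zyx, which encodes the focal adhesion protein zyxin, went from 686, 814 and 698 CPM to 357, 354 and 359 CPM, against 290, 267 and 246 CPM in mock (-1.04 ± 0.08, adjusted p = 2.63e-05). Vcl (vinculin) went from 557, 648 and 689 CPM to 320, 348 and 386 CPM (-0.85 ± 0.09, adjusted p = 0.000128). Cnn2 (calponin 2) changed by -1.21 ± 0.11 and Tpm1 (tropomyosin 1) by -1.04 ± 0.11 on the log2 scale, with adjusted p = 4.52e-05 and 0.000152. For all 4 genes the GRP+RC libraries stayed above every mock library.

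Among inhibitors that feed back on MAP kinase and G-protein signalling, 4 of 21 were called lower (19.0%) and none higher, and 10 were lower by the adjusted p alone. Beside Rgs16 these were Dusp5, an ERK phosphatase (-1.64 ± 0.15, adjusted p = 5.20e-05), Rgs2, a GTPase-activating protein for Gq (-1.91 ± 0.21, adjusted p = 0.000161), and Spry2, an inhibitor of receptor signalling to RAS (-1.30 ± 0.17, adjusted p = 0.000426). Spry2 held 148, 219 and 210 CPM with GRP, 65.2, 73.4 and 95.5 CPM with GRP+RC and 44.5, 44.6 and 53.7 CPM in mock. With the replicate block 5 of the 21 were called lower.

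Of 12 tested NF-kappaB targets and feedback genes, 3 were called lower (25%) and 9 by the adjusted p alone. The non-canonical subunit Relb went from 62.3, 77.6 and 65.0 CPM to 31.8, 30.8 and 31.0 CPM (-1.13 ± 0.09, adjusted p = 2.60e-05). Nfkb2 went from 120, 129 and 126 CPM to 56.4, 59.6 and 66.6 CPM (-1.04 ± 0.08, adjusted p = 2.60e-05). The inhibitor Tnfaip3 (A20) changed by -1.64 ± 0.20 (adjusted p = 0.000361) and the canonical precursor Nfkb1 by -0.64 ± 0.08 (adjusted p = 0.00028).

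In the integrated stress response 3 of 12 genes were called lower (25%), and none without replicate 2. Chac1, a glutathione-degrading enzyme, went from 74.4, 105 and 38.7 CPM to 19.9, 16.4 and 9.68 CPM, against 17.4, 8.90 and 6.31 CPM in mock (-2.24 ± 0.48, adjusted p = 0.0101). Sesn2, a stress-induced regulator of mTORC1, went from 62.9, 93.3 and 47.3 CPM to 32.5, 27.3 and 22.6 CPM (-1.30 ± 0.23, adjusted p = 0.00304). Atf4, the transcription factor at the head of this response, went from 583, 691 and 568 CPM to 388, 351 and 352 CPM (-0.76 ± 0.12, adjusted p = 0.0019). In these 3 genes GRP+RC overlapped mock. Ddit3 (CHOP) changed by -0.54 (adjusted p = 0.0244). Without replicate 2 the adjusted p was 0.171 for Chac1, 0.0753 for Sesn2, 0.0527 for Atf4 and 0.0668 for Ddit3. With the replicate block 3 of the 12 were called lower, and 11 were lower by the adjusted p, against 21.7% of all genes. The adjusted p under the block was 1.69e-08 for Chac1, 8.43e-08 for Sesn2, 2.46e-07 for Atf4 and 1.13e-05 for Ddit3.

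**Figure D3:**
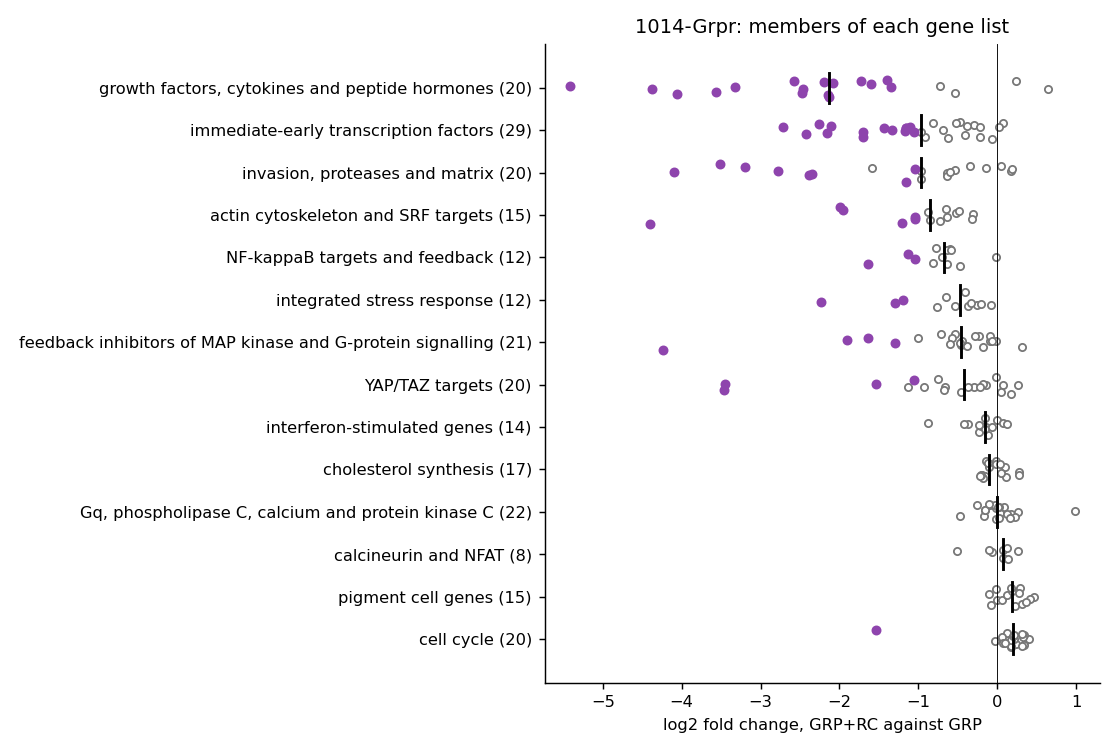
Log2 fold change of GRP+RC against GRP in 1014-Grpr for the tested members of 14 gene lists (number of members in brackets). Filled points were called, open points were not, vertical spread within a list is only for legibility, and black bars are medians, from -2.13 for secreted signals to 0.20 for the cell cycle.

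None of 22 tested genes of Gq, phospholipase C, calcium and protein kinase C was called with GRP+RC against GRP, and the median was -0.00. By the adjusted p alone Prkcd, an isoform of protein kinase C, was lower (-0.47 ± 0.07, adjusted p = 0.000997) with 62.0, 66.6 and 55.8 CPM with GRP and 43.8, 45.7 and 43.1 CPM with GRP+RC. Prkcz, an atypical isoform, was higher (0.99 ± 0.24, adjusted p = 0.02), with 0.775, 0.784 and 0.844 CPM against 1.48, 1.67 and 1.66 CPM. Prkcd no longer passed without replicate 1 (adjusted p = 0.0574), and Prkcz no longer passed with any 1 replicate number left out (0.0524 to 0.222). None of 8 calcineurin and NFAT genes was called. Rcan1, a feedback inhibitor that calcineurin induces, was lower by the adjusted p (-0.51 ± 0.08, adjusted p = 0.00215), at 24.9, 29.2 and 26.2 CPM with GRP and 19.0, 18.8 and 18.7 CPM with GRP+RC, a range that overlapped mock.

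Pigment cell genes, cholesterol synthesis, interferon-stimulated genes and the cell cycle contributed 1 call in all. This was Cdkn1a, which encodes the CDK inhibitor p21 and went from 412, 465 and 473 CPM to 167, 134 and 163 CPM, against 114, 79.8 and 85.6 CPM in mock (-1.54 ± 0.14, adjusted p = 4.52e-05). The replication licensing genes Mcm5, Mcm4 and Mcm3 were higher by 0.34, 0.34 and 0.40 on the log2 scale (adjusted p = 0.00381, 0.0404 and 0.0432). These 3 genes, all within 2-fold, no longer passed the adjusted p in several alternatives, among them without replicate 2 (0.104, 0.0981 and 0.0888). With the replicate block 15 of 20 cell cycle genes passed the adjusted p higher, against the same 17.0%. Of 15 pigment cell genes none passed without the block, and 10 passed higher and 1 lower with it. The melanocyte channel gene Trpm1 stood at 28.8, 27.3 and 25.8 CPM with GRP and 41.7, 40.8 and 31.1 CPM with GRP+RC (0.47, adjusted p = 0.0581, and 1.24e-05 with the block). The interferon-stimulated gene Isg15 stood at 35.5, 19.5 and 27.3 CPM and 19.7, 8.82 and 16.1 CPM (-0.88, adjusted p = 0.143, and 2.83e-08 with the block). With the block 7 of 14 interferon-stimulated genes passed lower, against 21.7% of all genes. In cholesterol synthesis the final reductase gene Dhcr7 was higher within 2-fold (0.28, adjusted p = 0.0485), and no longer passed in most alternatives with fewer libraries.

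Genes called higher with RC added were few and mostly low. Of the 20, 12 had been called lower after GRP, and 11 had a mean under 1 CPM. Plekha7, an adherens junction protein that binds p120 catenin, stood at 40.9, 37.0 and 35.8 CPM in mock and 13.7, 12.3 and 9.61 CPM with GRP. It stood at 26.9, 24.7 and 20.7 CPM with GRP+RC, apart from both groups (1.03 ± 0.14, adjusted p = 0.000586). Hhatl, a paralogue of the Hedgehog acyltransferase gene, went from 1.67, 2.45 and 2.12 CPM with GRP to 4.27, 4.93 and 4.11 CPM (1.08 ± 0.20, adjusted p = 0.004). The receptor phosphatase gene Ptprb went from 0.612, 0.613 and 0.616 CPM to 1.25, 1.80 and 1.29 CPM (1.23 ± 0.24, adjusted p = 0.00615). Kcnj13, a potassium channel gene with 49.1% of its exon bases shared with a gene on the other strand, stood at 13.1, 10.8 and 16.2 CPM with GRP. With GRP+RC it stood at 31.8, 18.9 and 34.6 CPM (1.08 ± 0.30, adjusted p = 0.0388). Fam19a5, Gm16316 and Fbxl21 rose by 1.14, 1.13 and 1.04 on the log2 scale (adjusted p = 0.00203, 0.000956 and 0.0454). The Kcnj13 call was lost without replicate 1 or 3 (0.306 and 0.0504) and the Fbxl21 call without replicate 1 or 3 (0.337 and 0.2). The Hhatl call was lost without replicate 1 (0.0604) and that of Ptprb without replicate 2 or 3 (0.132 and 0.0567).

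The 5 genes with the largest change under RC that had shown none with GRP, by an unadjusted p above 0.05, were mitochondrial genes and nuclear copies of them. mt-Atp6 stood at 3.35, 4.67 and 3.56 CPM with GRP and 7.28, 11.5 and 10.3 CPM with GRP+RC (1.33, adjusted p = 0.00339, and 0.0606 without replicate 3), and mt-Nd4l at 0.734, 0.511 and 0.616 CPM and 1.95, 2.93 and 2.49 CPM (1.99, adjusted p = 0.000411). Gm10925 went the other way, from 17.3, 22.7 and 18.4 CPM to 9.37, 5.73 and 7.23 CPM (-1.39, adjusted p = 0.000425), as did Gm28437 (-1.29, adjusted p = 0.00051) and Gm29216 (-1.45, adjusted p = 0.00338, and 0.076 without replicate 2). Such copies share reads with mitochondrial genes, so how the counting split them is uncertain and these values are not read as expression. The sum of mt-Atp6 and Gm10925 was 20.7, 27.4 and 21.9 CPM with GRP and 16.7, 17.3 and 17.5 CPM with GRP+RC. The share of all counts on mitochondrial genes was 2.24% to 2.66% with GRP and 2.20% to 2.58% with GRP+RC.

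Part of the GRP response was left under RC. Against mock, GRP+RC called 21 genes higher (0.153%) and 5 lower (0.0364%), compared with 434 and 117 for GRP alone. Of the 21, 18 had been called higher after GRP, against 3.16% of all genes, and the other 3 were mitochondrial genes. Both contrasts use the same 3 mock libraries, so this overlap is partly built in. GRP+RC against RC, which shares no library with GRP against mock, is given below and called no gene without the block in edgeR's test. The 5 with the largest remaining change at a mean of at least 1 CPM were Bcl6b, Stc1, Nr4a3, Plaur and Lif. Bcl6b, a transcriptional repressor gene, stood at 5.63, 5.89 and 3.56 CPM with GRP and 0.464, 0.878 and 0.540 CPM with GRP+RC, against 5 counts in all in mock. Its ratio of GRP+RC to mock over pooled counts was 10.6 (4.21 to 34.2, adjusted p = 0.0408). Nr4a3, an orphan nuclear receptor gene, stood at 4.87, 5.02 and 2.24 CPM in mock, 88.8, 143 and 59.3 CPM with GRP and 24.6, 25.3 and 15.1 CPM with GRP+RC (2.39 against mock, adjusted p = 0.0164). Against GRP alone Nr4a3 changed by -2.16 ± 0.34 (adjusted p = 0.00144), a call lost without replicate 1 (0.0554). Lif remained 1.89 above mock on the log2 scale (adjusted p = 0.0164). Named after their values were seen, as the rest of the 18, were Fosl1 (1.76), Rhov (2.37), Egr3 (1.5), Nppb (1.45), Chst11 (1.38), Tnfaip2 (1.34), Lcp1 (1.24), Mical2 (1.12), Cx3cl1 (1.10), Hmga2 (1.09), Sdc1 (1.06), Tnfrsf12a (1.05) and Pkp2 (1.02), each with its log2 fold change against mock. The total of 26 calls fell to 1, 0 and 3 without replicate 1, 2 and 3, and rose to 85 with the replicate block (71 higher and 14 lower).

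RC alone called no gene against mock, with 161 genes at an unadjusted p under 0.05, 0 with DESeq2 and 1 with the replicate block. Nr4a3 nonetheless stood at 10.7, 10.6 and 6.22 CPM with RC, Plaur at 2.62, 2.94 and 2.76 CPM and Nppb at 22.6, 21.7 and 19.2 CPM, each above all of its mock libraries, with an adjusted p of 1. GRP+RC against RC called no gene in edgeR's test without a block, with 952 genes at an unadjusted p under 0.05. DESeq2 called 11, all higher, and with the replicate block 29 were called higher (0.211%) and 3 lower. Of the 29, 23 had been called higher after GRP, against 3.16% of all genes, among them Rgs16, Tnc, Ccn1, Plaur and Lif. By the adjusted p alone under the block 800 genes (5.83%) were higher. Of the 29 immediate-early factors 16 were, as were 9 of the 15 actin and SRF genes and 7 of the 20 secreted signals. Of the 108 genes taken from 1057 and 1064, 49 were.

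In 1014-Ctrl, which carries the tGFP plasmid alone, GRP+RC against GRP called 0 of 13755 genes, with 75 at an unadjusted p under 0.05 and 0 with DESeq2 or the replicate block. The fit held the mock library of replicate 2 that carries Grpr, which can widen the estimated spread and so lower the number of calls. That library also stood apart in other genes. Its Trpm1 was at 1030 CPM against 81.1 and 115 CPM in the other mock libraries of the line, and its Chac1 at 81.9 against 13.8 and 9.71 CPM. Without replicate 2 of every treatment 0 genes were called. Leaving out that library alone was not tried for this contrast. Of the 218 genes lowered in 1014-Grpr, 174 were tested there. Their median log2 fold change was -0.05, the lowest was -0.56, and 105 lay below 0. Lif, for one, stood at 1.76, 1.84 and 2.42 CPM with GRP and 2.02, 1.59 and 2.08 CPM with GRP+RC, and Ccn1 at 7.67, 5.22 and 3.52 CPM and 7.43, 7.05 and 3.6 CPM. The difference between the lines, tested in 1 fit of 24 libraries, was called downward in 1014-Grpr for 88 of 14204 genes (0.62%) and upward for 6. Without the mock library of 1014-Ctrl that carries Grpr these counts were 146 and 15, with the replicate block 139 and 15, and without replicate 1 and 3 they were 35 and 0 and 14 and 0. Lif differed by -3.48 (adjusted p = 4.17e-05), Plaur by -2.23 (adjusted p = 9.96e-05) and Ccn1 by -3.59 (adjusted p = 0.00271).

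The same addition of RC in 1057, where Grpr stood at 187, 179 and 191 CPM with GRP, called 107 of 14195 genes lower and 38 higher. Of the 218 genes lowered in 1014-Grpr, 181 were tested in 1057, where 147 lay below 0 with a median of -0.32. The difference between the lines was called downward in 1014-Grpr for 130 of 15538 genes (0.837%) and upward for 20. These counts were 175 and 44 with the replicate block, and 75 and 6 without replicate 2. The lines also differ in Cdh1 and Cdkn2a and in the source of Grpr, which cannot be told apart here. Lif went from 2.18, 2.09 and 2.15 CPM in mock to 60.1, 134 and 85.3 CPM with GRP in 1014-Grpr, and from 41.7, 40.8 and 41.3 CPM to 88.9, 80.7 and 84.1 CPM in 1057. With GRP+RC Lif stood at 100, 96.1 and 91.6 CPM in 1057, above all of its GRP libraries, and RC alone gave 80.0, 75.9 and 79.1 CPM. The difference in Lif was -3.74 on the log2 scale (adjusted p = 9.66e-09). In 1057 Rgs16 stood at 0.328, 0.416 and 0.413 CPM in mock and 1.00, 1.53 and 1.08 CPM with GRP. With GRP+RC it stood at 1.01, 1.10 and 1.46 CPM there, overlapping GRP, and its difference was -4.21 (adjusted p = 0.000333). In 1014-Grpr the GRP response of Rgs16 was larger, from 4, 12 and 2 counts in mock to 756, 2998 and 2078 with GRP. Inhba went from 1.47, 1.48 and 1.49 CPM to 0.442, 0.227 and 0.467 CPM in 1057 (difference -3.47, adjusted p = 0.000737), and Bcl6b from 0.470, 0.349 and 0.321 CPM to 0.598, 0.198 and 0.498 CPM (difference -3.18, adjusted p = 0.000978). Inhba and Bcl6b were at 0 CPM in the mock libraries of 1057. Xirp1 was too low to be tested within 1057 (difference in the joint fit -5.04, adjusted p = 0.0457). Lif, Rgs16, Inhba, Bcl6b and Xirp1 were named because their difference was among the largest in this test. How far unequal GRP responses make up these differences was not tested. Ccn1 went from 17.6, 20.7 and 20.4 CPM to 5.43, 4.90 and 5.64 CPM in 1057, and its difference of -1.57 did not pass (adjusted p = 0.0503).

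**Figure D4:**
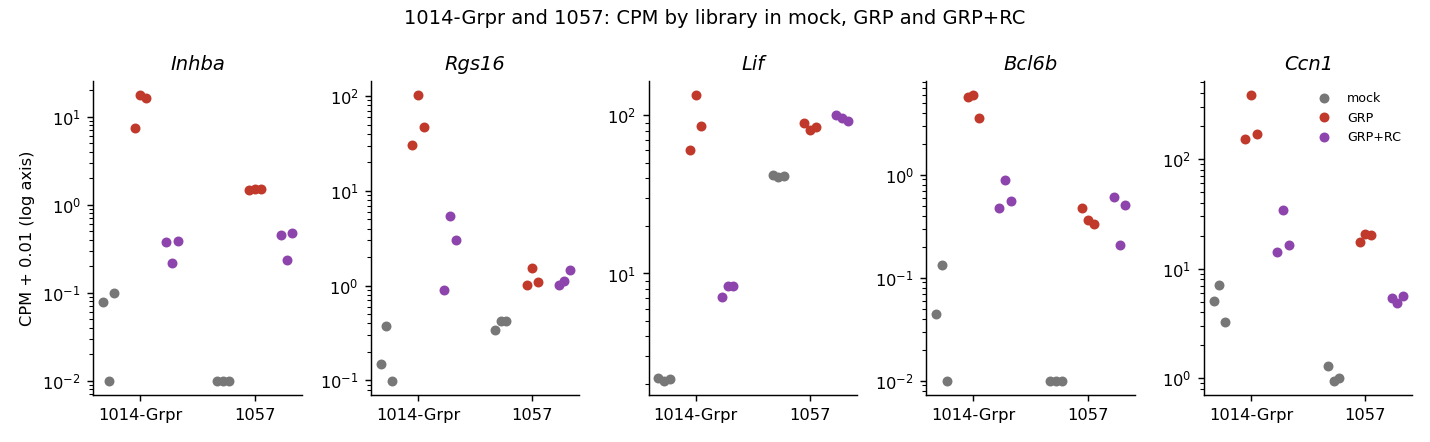
CPM plus 0.01 on a log axis for 5 genes in 1014-Grpr and 1057, with 1 point per library for mock (grey), GRP (red) and GRP+RC (purple), normalized within each line. In 1014-Grpr every GRP+RC point lies below every GRP point, whereas in 1057 this holds for Inhba and Ccn1 but not for Rgs16, Lif and Bcl6b.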

How the data were processed

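RNA-seq libraries of mouse melanoma lines were grouped by the lines, treatments and replicate numbers of the labels. Per the paper's methods, libraries were polyA-selected and strand-specific, sequenced as paired ends and mapped with STAR to mm10 (GRCm38.p5, GENCODE), which also made the expression matrices. The submitters' processing notes name FastQC 0.11.5. How STAR was set to count strands is not given in the sources used here. The authors deposited raw counts per gene and library, without normalization, which were used as deposited. TPM values were also deposited and were not used. Of the 50600 genes counted, 99.6% were found in GENCODE M21 (GRCm38), used for symbols, positions and overlaps.

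The 12 libraries of 1014-Grpr were fitted together with edgeR 4.0.16 (R 4.3.3; filterByExpr, TMM, quasi-likelihood test) without a block, and a gene counted as called when it changed more than 2-fold with an adjusted p (Benjamini-Hochberg) below 0.05. The SE of a log2 fold change is its size over the root of the F statistic. Differences between lines were fitted over 24 libraries. Depth was 19512882 to 46862053 counts per library, and intervals and floors cover counting error only, since reads carry no molecular identifiers. Replicates of a group differed by far more than sampling noise (chi-square per degree of freedom at least 12.3), so none was a copy of another. Same-numbered libraries of different treatments deviated together (correlations of 0.372 to 0.514 over 18 pairs, against -0.375 to -0.023 for other numbers). The replicate number, taken from the labels, therefore pairs the libraries. Blocked values are given for the comparisons and for some of the lists and genes whose result the block changed.

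Genes named were Grpr and its family, the 10 called lower and the 10 called higher with the largest change at a mean of at least 1 CPM (9 of the latter existed), the 4 with the lowest p of each of 15 lists, and 5 each of 4 further sets: the largest response in 1057 and 1064, the largest remainder against mock, the largest change without a GRP response, and the largest difference to 1057. One gene that this rule names is not reported here. The members and lists were chosen with earlier results of these data known. Alternatives were DESeq2 1.42.0, no low-count filter beyond a count above 0, RLE normalization, the adjusted p alone, the replicate block, other sets of libraries and each replicate left out. Steps were tested on simulated data. Figures used matplotlib 3.10.9.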

Additional observations from a re-analysis of the deposited data

Results flagged for a closer look

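The effect of adding RC to GRP differed between lines by interaction tests. Against 1014-Ctrl 94 genes were called for a difference, and against 1057 there were 150. With libraries left out these counts ranged from 14 to 161 and from 81 to 115. The count of 161 came without the mock library of 1014-Ctrl that carries Grpr. The named genes with the largest differences to 1057 were Xirp1 (-5.04 on the log2 scale), Rgs16 (-4.21), Lif (-3.74), Inhba (-3.47) and Bcl6b (-3.18), where a negative value means that the change in 1014-Grpr lay below that in 1057. The part played by genotype, the source of Grpr or the size of the GRP response in these differences was not tested.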

How the results depend on the processing

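The genes lowered by RC numbered between 128 and 269 under the alternatives that kept the 2-fold threshold. With the adjusted p alone the counts were 1106 lower and 510 higher for GRP+RC against GRP, 2244 higher and 1742 lower for GRP against mock, 130 for GRP+RC against mock, 600 for the RC effect on the GRP response, 290 and 906 for the differences to 1014-Ctrl and 1057, and 78 of the 108 genes from 1057 and 1064. With the replicate block there were 44 genes higher with RC, 85 called against mock, 32 against RC, 287 for the RC effect, 1 for RC against mock and 154 for the difference to 1014-Ctrl. The block also gave 269 genes lower with RC, 474 higher and 164 lower after GRP, 219 for the difference to 1057 and 52 of the 108 genes. No named gene that passed the adjusted p failed it under the block, and 15 passed it only with the block. Without the low-count filter 46 genes were called against mock, 16 against RC and 1 for RC against mock. DESeq2 gave 13 genes higher and 11 against RC, and the 6 libraries alone gave 12 higher. Without the 1014-Ctrl mock library of replicate 2 the difference to that line was 161.

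Leaving out replicates gave 128 to 256 genes lower and 3 to 21 higher with RC, and 336 to 430 higher and 74 to 96 lower after GRP. It gave 0 to 3 genes called against mock, 0 against RC, 46 to 94 for the RC effect, 0 for RC against mock and 0 in 1014-Ctrl. The difference to 1014-Ctrl ranged from 14 to 161 and that to 1057 from 81 to 115, and of the 108 genes 40 to 58 were called with a median of -1.08 to -0.91. These 108 genes were kept fixed under every alternative. In 2 genes that had passed no test the sign turned: AI839979 ranged from -0.49 to 0.08 with replicates left out (adjusted p = 0.918 for the latter, without replicate 1), and Nmb from -0.01 to 0.37 (adjusted p = 0.994 for the former, without the GRP+RC library of replicate 2). Of the 79 named genes, 43 kept direction and call under every alternative. The cause of these changes was not tested. Genes under about 1 CPM rest on few counts per library, and their fitted fold changes depend on the prior count.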

Other observations

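Some genes followed the replicate number in every treatment of 1014-Grpr. Isg15, an interferon-induced ubiquitin-like protein, was lowest in replicate 2 of mock, GRP, RC and GRP+RC alike (7.85, 19.5, 9.77 and 8.82 CPM) and highest in replicate 1 (19.0, 35.5, 19.9 and 19.7 CPM). The glutathione-degrading enzyme gene Chac1 was lowest in replicate 3 of each treatment (6.31, 38.7, 6.25 and 9.68 CPM), as was Nr4a3 (2.24, 59.3, 6.22 and 15.1 CPM). Kcnj13 was lowest in replicate 2 (37.5, 10.8, 30.0 and 18.9 CPM). The labels do not say what the numbers stand for.

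RC alone left Lif of 1057 at 80.0, 75.9 and 79.1 CPM, near its GRP libraries at 88.9, 80.7 and 84.1 CPM, whereas in 1014-Grpr RC alone gave 3.32, 2.94 and 4.54 CPM against 60.1, 134 and 85.3 CPM with GRP. These values were seen after the analysis and were not tested as a difference.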
